A study of Caenorhabditis elegans with 17 samples.

Results

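Histone methylation enzymes outside COMPASS are described here in whole Caenorhabditis elegans on RNAi against ash-2, hsf-1 or both. Members were the genes whose public name begins with set, met, mes, jmjd, jmjc, prmt or dot, without set-2 and set-16, with an FPKM of 1 or more in 4 or more of the 17 libraries. FPKM is the number of fragments per kilobase of transcript, scaled to the mapped fragments of the library. Of 26786 genes in the expression table, 56 had a matching name and 47 of these passed the filter. The rule goes by name, and its members are not all enzymes. mes-1 encodes a receptor tyrosine kinase-like protein of embryonic polarity, and mes-3 and mes-6 encode non-catalytic subunits of the Polycomb repressive complex PRC2.

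Histone methylation is written by SET-domain, DOT1 and arginine methyltransferases (PRMT) and is removed by JmjC-domain demethylases. In C. elegans, MET-2 and SET-25 methylate H3K9 and help hold heterochromatin at the nuclear periphery. MET-1 and MES-4 methylate H3K36, and MES-2 with MES-3 and MES-6 methylates H3K27, so that MES-4 and PRC2 mark different parts of the germline genome. COMPASS, the complex that methylates H3K4, holds the core subunit ASH-2 and the catalytic subunits SET-2 and SET-16. HSF-1 is the transcription factor of the heat shock response.

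All animals carried rmIs133 [unc-54p::Q40::YFP], a transgene whose unc-54 promoter drives a polyglutamine-YFP protein in body wall muscle, and RNA came from whole animals. They were day 1 adults, 96 h old and kept at 20 °C on HT115 (DE3) bacteria. There were 5 libraries of the L4440 empty-vector control and 4 each of ash-2 RNAi, hsf-1 RNAi and ash-2 + hsf-1 RNAi. Both groups fed ash-2 RNAi descended from parents raised on it from the egg, so parental and own knockdown cannot be told apart.

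hsf-1 mRNA fell in both groups on hsf-1 RNAi, and ash-2 mRNA fell with ash-2 RNAi but did not pass the test in the combined group. ash-2 mRNA averaged 16.4 FPKM in L4440 (14.1 to 19.1), 5.46 in ash-2 RNAi (2.04 to 8.68, adjusted p = 0.00823) and 8.47 in the combined group (3.92 to 11.6, adjusted p = 0.203). With hsf-1 RNAi alone it read 5.57 to 17.4 FPKM, so its lowest library there lay within the ash-2 RNAi range. hsf-1 averaged 29.9 in L4440, 12.5 in hsf-1 RNAi (adjusted p = 0.00858) and 9.74 in the combined group (adjusted p = 0.00167). Adjusted p-values here and below are from limma on log2(FPKM + 0.5), Benjamini-Hochberg adjusted over 13084 genes, and a gene is called at an adjusted p under 0.05. The number of detected genes (FPKM of at least 1) was 11459 to 12664 in L4440, 9401 to 11189 in ash-2, 10745 to 13066 in hsf-1 and 10591 to 12712 in the combined group. It was lowest in ash-2 replicate 1 (9401) and replicate 3 (9817), ash-2 + hsf-1 replicate 3 (10591) and hsf-1 replicate 4 (10745), here called the low-detection libraries. Counts of called members are given with and without them, and the ash-2 and hsf-1 mRNA values only with all libraries. The size of 1 fragment, read from low values of FPKM times transcript length, put depth at 16.2 to 19.6 M fragments per library. All 15 germline markers were detected in every library, as were all 14 oocyte and eggshell markers.

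Most members were moderately expressed in L4440. Their median was 10.99 FPKM, against 10.04 over all tested genes. prmt-1, the main enzyme of asymmetric arginine dimethylation, stood alone above 100 FPKM at 477 ± 34.3 (SD, n = 5). Next came set-1, the H4K20 monomethyltransferase, at 80.6 ± 12.1, set-17, an H3K4 methyltransferase of spermatogenesis, at 58.5 ± 4.44, set-4, which adds the higher H4K20 methyl states, at 48.9 ± 1.13, and prmt-9 at 44.9 ± 2.68. The library ranges of set-1 and set-17 overlapped, and so did those of set-4 and prmt-9, while set-17 lay above set-4 in every L4440 library. Between 20 and 100 FPKM there were 13 members, between 10 and 20 there were 10, between 5 and 10 there were 7, and between 1 and 5 there were 14. jmjd-3.2 and jmjd-3.3, both of the UTX/JMJD3 family of H3K27 demethylases, averaged under 1 FPKM.

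**Figure D1:**
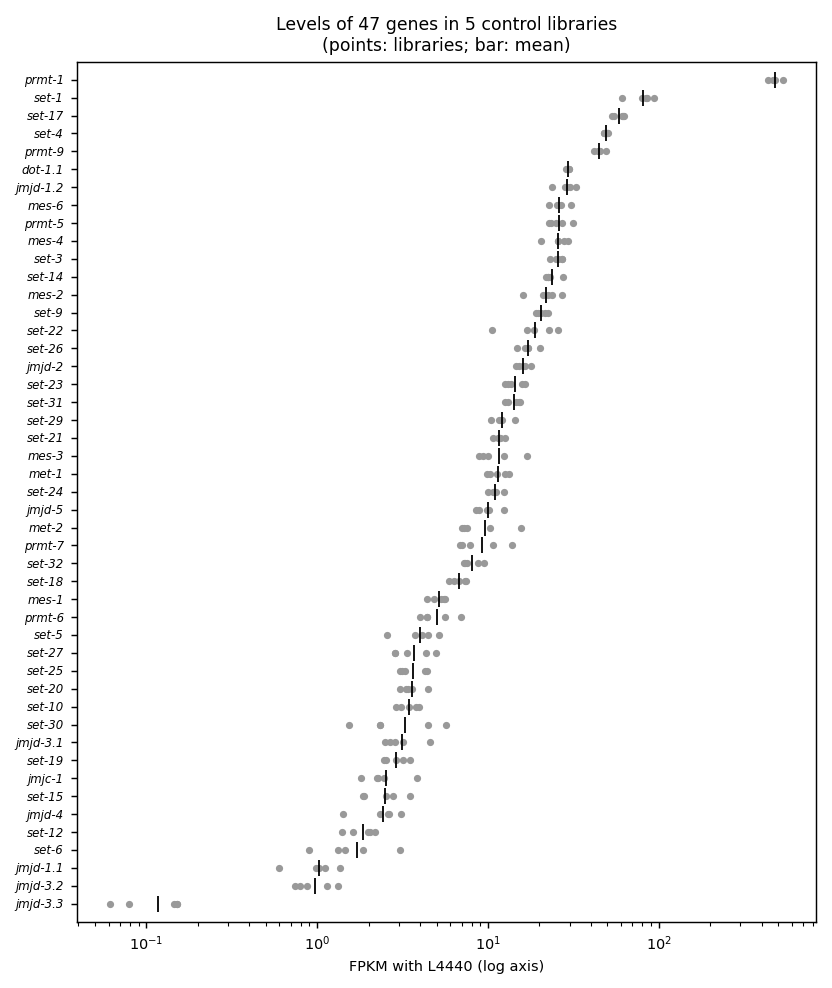
FPKM (log axis) of the 47 genes in the L4440 control, one point per library and a line at the mean of 5, ordered by mean. prmt-1 stands apart at 477 FPKM, and jmjd-3.2 and jmjd-3.3 lie under 1.

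By role, the H3K9 methyltransferase genes were low to moderate in L4440: met-2 averaged 9.54 FPKM, set-32 8.07, set-25 3.63 and set-6 1.71. Of the H3K36 enzymes, mes-4 averaged 25.8 FPKM, met-1 11.4, set-18 6.75 and set-12 1.84. The PRC2 genes mes-6 and mes-2 averaged 26.2 and 22 FPKM, above mes-3 at 11.5. dot-1.1, the H3K79 methyltransferase, averaged 29.3 FPKM, whereas dot-1.2, dot-1.3, dot-1.4 and dot-1.5 averaged 0.0129 to 0.801 FPKM and did not pass the filter. prmt-5, the symmetric arginine methyltransferase, averaged 26 FPKM. Of the JmjC genes, jmjd-1.2, which encodes a PHF8-like demethylase, averaged 28.8 FPKM and jmjd-2, a KDM4-type H3K9 and H3K36 demethylase, 16. In these whole-animal values, fewer cells of a type and less RNA per cell cannot be told apart.

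With ash-2 RNAi, 2 of the 47 genes fell and none rose: jmjd-1.1, which encodes a KDM7-type JmjC demethylase, and prmt-6, of the arginine methyltransferase family. Over all tested genes, 19.6% were called in this comparison (4.17% higher, 15.5% lower), against 4.26% of members. The median log2 difference was -0.15 over members and -0.32 over all tested genes. The sign of the members' median was not stable: it was 0.11 under median-of-ratios scaling (all genes -0.03), 0.18 under quantile normalization (0.06), 0.52 with the number of detected genes as a covariate (0.26), 0.30 without the 4 low-detection libraries (0.07) and 0.08 without ash-2 replicate 1 (-0.16). A further 4 members had an unadjusted p under 0.05 only, met-2, mes-3, set-18 and set-27, where 33.4% of all tested genes had one. The count depended on the scaling: 5 members were called under median-of-ratios scaling (26.1% of all tested genes, 9.65% higher and 16.4% lower), 11 under quantile normalization (22.6%, 12.5% higher and 10.1% lower) and 14 with the number of detected genes as a covariate (28.4%). Of the 11 under quantile normalization, 9 were higher. Without the 4 low-detection libraries 3 members were called (15.5% of all tested genes), with set-19 the one that was higher.

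jmjd-1.1 (F43G6.6; WBcel235, II:11806556-11808945, plus strand) read 1.12, 1.36, 0.983, 1.03 and 0.600 FPKM in the 5 L4440 libraries. In ash-2 RNAi it was listed at 0 in replicate 1 and read 0.107, 0.178 and 0.0419 in the others. Every ash-2 library lay below every L4440 library, with a log2 change of -1.37 ± 0.24 (SE, adjusted p = 0.000398). Its size ran from -0.58 under quantile normalization to -2.68 with a pseudocount of 0.1. In hsf-1 RNAi it read 1.49, 1.36, 1.51 and 0.448 FPKM, and in ash-2 + hsf-1 RNAi 0.624, 0.289, 0.3 and 0.305. The mean of the combined group sat between those of ash-2 and the control: 3 of its libraries lay below all of L4440, and replicate 1 overlapped the lowest control. The combined group differed from ash-2 by 0.59 ± 0.25 on the log2 scale, with no call (adjusted p = 0.126). It differed from L4440 by -0.78 ± 0.24 on the log2 scale (adjusted p = 0.0470) and from hsf-1 by -0.91 ± 0.25 (adjusted p = 0.0277). The call against L4440 was lost in 14 of 17 fits that each left out 1 library, with adjusted p-values of 0.00851 to 0.123, and held without L4440 replicate 5, hsf-1 replicate 4 or combined replicate 1. The call against hsf-1 was lost in 6 of these fits, those without hsf-1 replicate 1, 2 or 3 or combined replicate 2, 3 or 4, with adjusted p-values of 0.00131 to 0.104. The level was low, at most 53.8 estimated fragments in a library, and the gene passed the filter only through L4440 and hsf-1 libraries, so a low ash-2 value did not count against it.

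prmt-6 (C23H5.1; IV:2130965-2133029, plus strand) read 5.58, 6.92, 4.40, 4.40 and 3.99 FPKM in L4440. It read 1.49, 2.19, 1.52 and 1.53 in ash-2 RNAi and 1.99, 2.00, 1.35 and 0.848 in ash-2 + hsf-1 RNAi. All 8 libraries on ash-2 RNAi lay below all 5 control libraries. In hsf-1 RNAi the gene read 6.83, 5.68, 4.26 and 2.18 FPKM, within the control range except in replicate 4. The log2 change was -1.34 ± 0.28 with ash-2 (adjusted p = 0.00254), -1.46 ± 0.28 with both against L4440 (adjusted p = 0.00297) and -1.31 ± 0.30 with both against hsf-1 (adjusted p = 0.00988). Between ash-2 and the combined group it differed by -0.13 ± 0.30 (adjusted p = 0.805). The change with ash-2 was -0.66 under quantile normalization. These prmt-6 calls held in each fit without 1 library and without the 4 low-detection libraries.

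Sperm transcripts moved in the same comparison. The summed level of 15 sperm markers was 640 to 699 FPKM in L4440, 57.9 to 160 in ash-2, 899 to 1653 in hsf-1 and 314 to 884 in the combined group. All 12 sperm markers that could be tested fell with ash-2 RNAi, with a median log2 change of -2.83, and at most 2 of the 15 were at 0 in a library. Summed oocyte and eggshell markers were 6791 to 7746 FPKM in L4440 and 8555 to 11151 in ash-2, with 2 of 14 called higher, and summed intestine markers 1040 to 1148 and 826 to 1006, with 1 of 7 called lower. The part of these markers in the jmjd-1.1 and prmt-6 changes was not tested. The hsf-1 library with the highest sperm sum, replicate 4, had the lowest jmjd-1.1 and prmt-6 values of its group. It is a low-detection library, in which the median member stood at -1.12 on the log2 scale relative to L4440. Low values of 2 members there cannot be told apart from that wider drop. dot-1.3, a DOT1 paralogue that did not pass the filter and had no test, read 0.559 to 0.845 FPKM in L4440, 0 to 0.127 in ash-2, 0.760 to 1.34 in hsf-1 and 0.186 to 0.361 in the combined group. set-13, also under the filter, went the other way, with 0.422 to 0.833 FPKM in L4440 and 0.958 to 1.69 in ash-2.

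**Figure D2:**
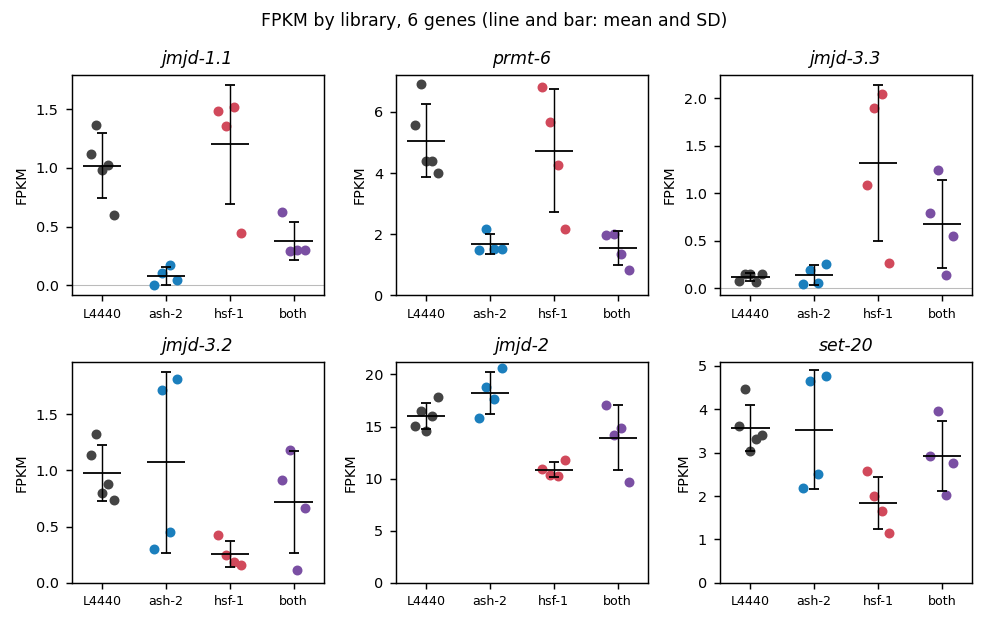
FPKM of jmjd-1.1, prmt-6, jmjd-3.3, jmjd-3.2, jmjd-2 and set-20 in each library of the 4 RNAi groups ("both" is ash-2 + hsf-1), with mean and SD. jmjd-1.1 and prmt-6 are low in all 4 ash-2 libraries, and jmjd-3.3 is above 1 in 3 of 4 hsf-1 libraries.

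met-2 and mes-3 had the lowest log2 differences of all members with ash-2 RNAi, and neither was called. met-2 read 10.3, 15.6, 7.54, 7.23 and 7.0 FPKM in L4440 and 0.411, 6.68, 0.608 and 8.42 in ash-2 RNAi. In hsf-1 RNAi it read 9.51, 10.9, 10.7 and 1.52, and in the combined group 7.57, 16.9, 1.96 and 7.02. The low values were those of the 4 low-detection libraries. The difference with ash-2 was -1.76 ± 0.73 on the log2 scale (adjusted p = 0.102). Without ash-2 replicate 4 it was -2.31 and passed the test (adjusted p = 0.0351).

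mes-3 followed the same libraries. It read 12.3, 17, 8.90, 9.36 and 10.05 FPKM in L4440, 0.846, 7.28, 1.1 and 10.8 in ash-2, 11.4, 14.1, 16.4 and 2.72 in hsf-1, and 7.94, 21.2, 2.14 and 18.7 in the combined group. The difference with ash-2 was -1.66 ± 0.70 (adjusted p = 0.111), and -2.19 without ash-2 replicate 4 (adjusted p = 0.0385). Its partner mes-2, the catalytic subunit of PRC2, averaged 22 ± 4.04 FPKM in L4440 and 18.1 ± 9.28 in ash-2, a log2 difference of -0.41 ± 0.44 (adjusted p = 0.515).

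set-27 (Y71H2AM.8), a SET gene without a settled substrate, had the same library pattern at lower levels. It read 4.35, 4.99, 2.85, 3.34 and 2.84 FPKM in L4440, 0.416, 2.89, 0.763 and 3.29 in ash-2, 4.95, 5.27, 5.05 and 1.01 in hsf-1, and 3.70, 5.89, 1.61 and 2.37 in the combined group. Its log2 difference with ash-2 was -1.06 ± 0.48 (adjusted p = 0.134).

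set-18, an H3K36 dimethyltransferase, differed from these genes in that the ash-2 and L4440 ranges did not overlap. It read 7.33, 7.43, 6.78, 6.35 and 5.87 FPKM in L4440 and 2.34, 5.78, 3.44 and 4.90 in ash-2. The hsf-1 libraries read 10.6, 8.66, 11.7 and 3.46, and the combined libraries 4.8, 5.88, 4.26 and 3.02. The log2 difference with ash-2 was -0.71 ± 0.31 (adjusted p = 0.124), with a call without hsf-1 replicate 4 (adjusted p from 0.0379 to 0.380 over the fits that left out 1 library). Non-overlapping but higher in ash-2, each with no call, were set-17 (73.5 ± 3.5 FPKM against 58.5 ± 4.44, adjusted p = 0.212), set-4 (60.8 ± 6.13 against 48.9 ± 1.13, adjusted p = 0.218) and dot-1.1 (34.5 ± 2.85 against 29.3 ± 0.469, adjusted p = 0.387). dot-1.1 was also non-overlapping with hsf-1 RNAi, there lower (25 ± 2.53 FPKM, adjusted p = 0.58). How many of all tested genes have non-overlapping ranges was not counted, so range separations are descriptive only, here and with hsf-1 RNAi below.

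With hsf-1 RNAi, 1 of the 47 genes rose and none fell by the test: jmjd-3.3, a UTX/JMJD3-family gene. Over all tested genes 10.6% were called (7.72% higher, 2.91% lower), against 2.13% of members. The median log2 difference was -0.30 over members and -0.03 over all tested genes. Without hsf-1 replicate 4 it was 0.0032 over members and 0.18 over all tested genes. A further 5 members had an unadjusted p under 0.05, set-20, jmjd-2, jmjd-3.2, prmt-1 and set-10, where 21.8% of all tested genes had one. Other scalings gave more calls: 6 members under median-of-ratios scaling (12.6% of all tested genes), 11 under quantile normalization (16.5%) and 27 with the covariate (39.6%), of which 24 were lower.

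jmjd-3.3 (C29F7.6; X:13436422-13441438, plus strand) was barely detected in the control, at 0.0787, 0.150, 0.145, 0.0613 and 0.150 FPKM. In hsf-1 RNAi it read 1.08, 1.89, 2.05 and 0.264, all above every control library, and in ash-2 RNAi 0.0401, 0.190, 0.0491 and 0.256. The combined libraries read 0.787, 1.24, 0.136 and 0.545, so that 3 of 4 lay above the control range. The log2 change with hsf-1 RNAi was 1.42 ± 0.32 (adjusted p = 0.00842), and 1.79 once the 4 low-detection libraries were left out. It was 0.98 with a pseudocount of 1 and 2.45 with one of 0.1. In the combined group the difference from L4440 was 0.84 ± 0.32 (adjusted p = 0.137). The gene entered the test through exactly 4 libraries, 3 of hsf-1 and 1 of the combined group, so only a gene high there could be tested. Summed neuron markers (8 genes) were 387 to 441 FPKM in L4440 and 541 to 597 in hsf-1, with 2 of 8 called higher, and summed oocyte and eggshell markers were 6791 to 7746 and 4729 to 7231, with 3 of 14 called lower. Summed intestine markers were 1040 to 1148 FPKM in L4440 and 1272 to 1497 in hsf-1, with 2 of 7 called higher and 1 lower, and sperm markers 640 to 699 and 899 to 1653. No body wall muscle marker of 7 and no germline marker of 15 was called in limma, with sums of 1856 to 2002 and 2118 to 2506 for muscle and of 1747 to 1943 and 1467 to 1650 for germline. Their part in the result was not tested.

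The other JmjC genes of its family went different ways in hsf-1 RNAi, without a call. jmjd-3.2 (F23D12.5) read 1.14, 1.33, 0.797, 0.874 and 0.739 FPKM in L4440 and 0.426, 0.247, 0.188 and 0.161 in hsf-1, every one below the control range. It read 0.298, 1.72, 0.455 and 1.82 in ash-2 and 0.916, 1.18, 0.111 and 0.662 in the combined group. The gene passed the filter through 5 libraries, none of them of hsf-1 RNAi, so a low hsf-1 value did not count against it. The log2 difference with hsf-1 was -0.96 ± 0.34 (adjusted p = 0.0836), with a call without combined replicate 3 (adjusted p from 0.0477 to 0.198 over the fits that left out 1 library). jmjd-3.1, an H3K27 demethylase tied to the decline of the heat shock response at the onset of adulthood, averaged 3.15 ± 0.847 FPKM in L4440 and 5.24 ± 2.25 in hsf-1, a log2 difference of 0.56 ± 0.41 (adjusted p = 0.518).

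jmjd-2 (Y48B6A.11; II:14234979-14243603, minus strand) had close values within L4440 and hsf-1. It read 15.1, 16.4, 14.6, 16 and 17.9 FPKM in L4440 and 11, 10.4, 10.3 and 11.8 in hsf-1, and the ranges did not overlap. It read 15.9, 18.8, 17.6 and 20.7 in ash-2 and 17.1, 14.2, 14.9 and 9.65 in the combined group. The log2 difference with hsf-1 was -0.54 ± 0.18 (adjusted p = 0.0629), with a call without hsf-1 replicate 4 and without combined replicate 4 (adjusted p from 0.0158 to 0.163 over the fits that left out 1 library).

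set-20 (W01C8.4; X:5680330-5686158, minus strand), a SET gene without a settled substrate, came closest to the threshold. It read 3.61, 4.46, 3.04, 3.32 and 3.41 FPKM in L4440, and 2.57, 2.01, 1.64 and 1.15 in hsf-1, again below the control range. It read 2.19, 4.65, 2.51 and 4.78 in ash-2 and 2.92, 3.97, 2.03 and 2.77 in the combined group. The log2 difference with hsf-1 was -0.82 ± 0.26 (adjusted p = 0.0505), and the gene was called in 6 of 17 fits that each left out 1 library (adjusted p from 0.0396 to 0.134). Those were the fits without ash-2 replicate 1 or 4, hsf-1 replicate 1, or combined replicate 2, 3 or 4.

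Without the 4 low-detection libraries 6 members were called with hsf-1 RNAi, against 21.9% of all tested genes: jmjd-3.3, jmjd-3.1 (0.92) and set-30 (1.67) higher, and jmjd-3.2 (-0.90), set-20 (-0.67) and jmjd-2 (-0.58) lower on the log2 scale. set-30, a SMYD3-like SET gene, read 9.72, 11.5, 10.5 and 1.54 FPKM in hsf-1, with the last in replicate 4, against 1.53 to 5.69 in L4440. In the authors' deposited table for this comparison, jmjd-3.2, jmjd-3.3 and set-30 are marked significant, and 12 members have a q-value under 0.05 (3 higher, 9 lower), as do 21.1% of all tested genes. In the authors' deposited table for ash-2 against L4440, jmjd-1.1 and prmt-6 are marked, and 11 members have a q-value under 0.05 (7 higher, 4 lower), as do 36.1% of all tested genes.

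**Figure D3:**
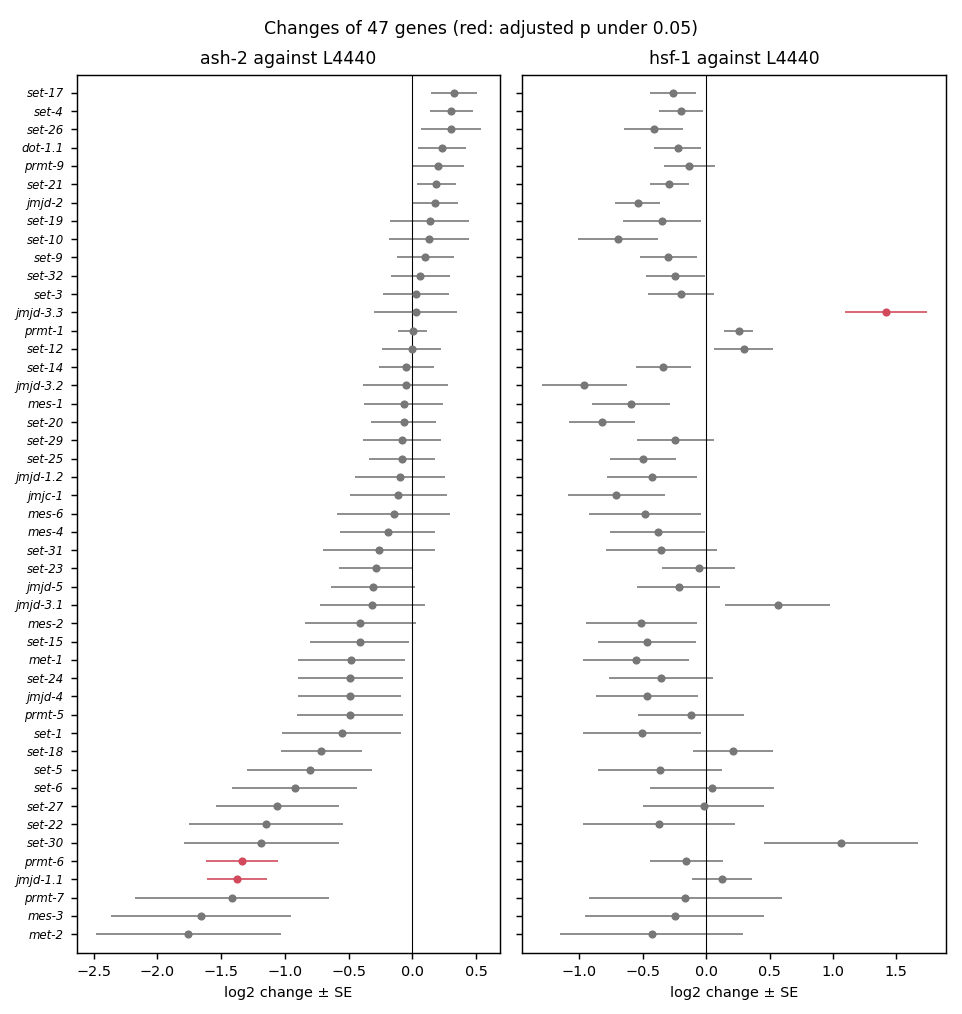
log2 change ± SE of the 47 genes with ash-2 RNAi (left) and hsf-1 RNAi (right) against L4440, on the log2(FPKM + 0.5) scale, ordered by the ash-2 change. Red marks an adjusted p under 0.05: jmjd-1.1 and prmt-6 on the left and jmjd-3.3 on the right.

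prmt-1 kept a narrow range outside 1 library. It read 466, 474, 476, 437 and 531 FPKM in L4440, 515, 454, 519 and 426 in ash-2, 522, 538, 528 and 707 in hsf-1, and 472, 436, 528 and 419 in the combined group. Its high value in hsf-1 replicate 4 came from a library in which most members were low. The combined group differed from hsf-1 by -0.30 ± 0.12 on the log2 scale (adjusted p = 0.141).

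With both RNAi clones against L4440, prmt-6 and jmjd-1.1 were the 2 members called, both lower, against 9.08% of all tested genes (5.4% lower). There were 3 under median-of-ratios scaling (11.3% of all tested genes), 3 under quantile normalization (13.7%), 4 with the covariate (18.7%) and 3 without the low-detection libraries (13%). Against hsf-1 RNAi the same 2 were called lower, against 9.71% (8.42% lower). That count was 5 under median-of-ratios scaling (11.4%), 11 under quantile normalization (14%), 26 with the covariate (35.4%) and 5 without the low-detection libraries (17.3%). These comparisons share samples with each other and with those above. Against ash-2 RNAi no member was called in limma, against 15.8% of all tested genes. An unadjusted p under 0.05 was found for 4 members (jmjd-3.3, jmjd-1.1, set-26 and jmjd-2), against 28.8% of all tested genes. Under quantile normalization 6 were called (17.4%), with the covariate 10 (27.1%) and without the low-detection libraries 1 (14.8%). In the authors' deposited table for that comparison, jmjd-3.3 is marked, as higher. It is the only 1 of the 47 members with a q-value under 0.05 there, against 16% of all tested genes. The interaction, which asks whether adding ash-2 RNAi acts differently with and without hsf-1 RNAi, gave no member called in limma, against 0.107% of all tested genes. No member had an unadjusted p under 0.05 for it, against 6.37% of all tested genes.

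set-9 and set-26 encode near-identical SET and PHD-finger proteins, so fragments of one may have been counted for the other. set-26 read 14.8, 17.2, 16.4, 17.1 and 20.0 FPKM in L4440, 19.2, 21.6, 19.7 and 24.5 in ash-2, 10.8, 11, 14.1 and 15.3 in hsf-1, and 18.7, 18, 16.9 and 7.62 in the combined group. All 4 combined libraries lay below all 4 ash-2 libraries, with a log2 difference of -0.53 ± 0.25 (adjusted p = 0.166). set-9 averaged 20.5 ± 1.37 FPKM in L4440, 22.1 ± 1.77 in ash-2, 16.7 ± 2.44 in hsf-1 and 17.2 ± 6.03 in the combined group.

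The remaining heterochromatin and H3K36 genes and mes-1 gave no call at the scaling used here. With hsf-1 RNAi, set-25 and mes-1 were called lower under median-of-ratios scaling and quantile normalization, and met-1 under quantile normalization. In the authors' deposited table for that comparison, set-25 has a q-value of 0.00054 and mes-1 one of 3.5e-06. For both genes the hsf-1 libraries lay below all L4440 libraries. set-25 averaged 3.63 ± 0.651 FPKM in L4440, 3.63 ± 1.68 in ash-2, 2.44 ± 0.548 in hsf-1 and 3.24 ± 0.447 in the combined group. met-1 averaged 11.4 ± 1.47, 9.50 ± 5.97, 8.55 ± 4.04 and 11.7 ± 3.54 FPKM in that order of groups. mes-4 averaged 25.8 ± 3.39, 25.1 ± 12.7, 21.3 ± 8.46 and 26.1 ± 7.47 FPKM. mes-1 averaged 5.14 ± 0.5, 5.34 ± 2.63, 3.33 ± 0.951 and 4.66 ± 1.45 FPKM. For met-1 and mes-4 the SD in the RNAi groups was larger than the difference between group means.

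The other members gave no call against L4440 at the scaling used here, though some were called under other scalings, such as prmt-9 and set-17 with ash-2 and jmjc-1 and set-10 with hsf-1. With ash-2 RNAi the log2 difference was -1.41 ± 0.76 for prmt-7 (adjusted p = 0.202), -1.19 ± 0.61 for set-30 (adjusted p = 0.183), -1.15 ± 0.60 for set-22 (adjusted p = 0.192) and -0.92 ± 0.49 for the H3K9 gene set-6 (adjusted p = 0.196). All 4 are among the genes lowest in the low-detection libraries. The arginine methyltransferase genes prmt-5 and prmt-9 differed by -0.49 ± 0.42 and 0.20 ± 0.20 with ash-2 and by -0.12 ± 0.42 and -0.13 ± 0.20 with hsf-1. Of the other JmjC genes, jmjc-1, which encodes a NO66-like oxygenase, averaged 2.52 ± 0.767 FPKM in L4440 and 1.39 ± 0.587 in hsf-1 (adjusted p = 0.309). jmjd-1.2, jmjd-4 and jmjd-5 had adjusted p-values of 0.393 or more with either clone. set-21 averaged 11.6 ± 0.674 FPKM in L4440 and 9.38 ± 0.633 in hsf-1, and these ranges did not overlap (adjusted p = 0.296). set-10 averaged 3.44 ± 0.446 FPKM in L4440 and 2.08 ± 0.958 in hsf-1 (adjusted p = 0.205). Of 14 tested SET genes without a settled substrate, none was called in any of the 6 comparisons at the scaling used here with all libraries. Over all tested genes, 0.107% to 19.6% were called in these comparisons. In limma, 1 of the 14 had an unadjusted p under 0.05 with ash-2 (33.4% of all tested genes) and 2 with hsf-1 (21.8%). Among those called in other fits were set-10, set-19 and set-20. Of the 9 genes under the filter, prmt-4, set-8, set-11 and set-28 averaged at most 0.605 FPKM in any group.

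Members also spread widely between libraries of one group. In the 2 low-detection ash-2 libraries, the median member stood at -1.12 on the log2 scale relative to the other 2 ash-2 libraries, against -0.52 over all tested genes, and 25 of 47 members (53.2%, against 28.4% of all tested genes) were under -1. In hsf-1 replicate 4 the median member stood at -1.18 relative to the rest of its group, against -0.82, and 28 members (59.6%, against 42.8%) were under -1. In ash-2 + hsf-1 replicate 3 it was -0.29 over members and over all tested genes, with 11 members under -1 (23.4%, against 18.9%). The rest of that group includes replicate 4, which was itself low. Relative to L4440, the median over members was -0.36 in both replicates. Over all tested genes it was -0.37 in replicate 4 and -0.27 in replicate 3. These are descriptions with no test, since the libraries were picked for their number of detected genes.

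The members did not drop alike. Under -1 in all 3 groups were 8 genes, mes-3, met-2, prmt-7, set-22, set-27, set-30, set-5 and set-6. At -0.5 or above in all 3 were 7 genes, dot-1.1, jmjd-2, prmt-1, set-21, set-26, set-4 and set-9. Neither count was made over all tested genes, so both are descriptive only. Across the 47 genes, Spearman's rho of these drops was 0.733 between ash-2 and hsf-1, 0.802 between ash-2 and the combined group and 0.588 between hsf-1 and the combined group. Over all 13084 tested genes the same values were 0.751, 0.645 and 0.511, and genes are not independent replicates. With the length of the longest transcript, rho over the 47 genes was between -0.225 and -0.018. Combined replicate 4 was low in other genes, with set-9 at 8.88 FPKM and set-26 at 7.62.

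**Figure D4:**
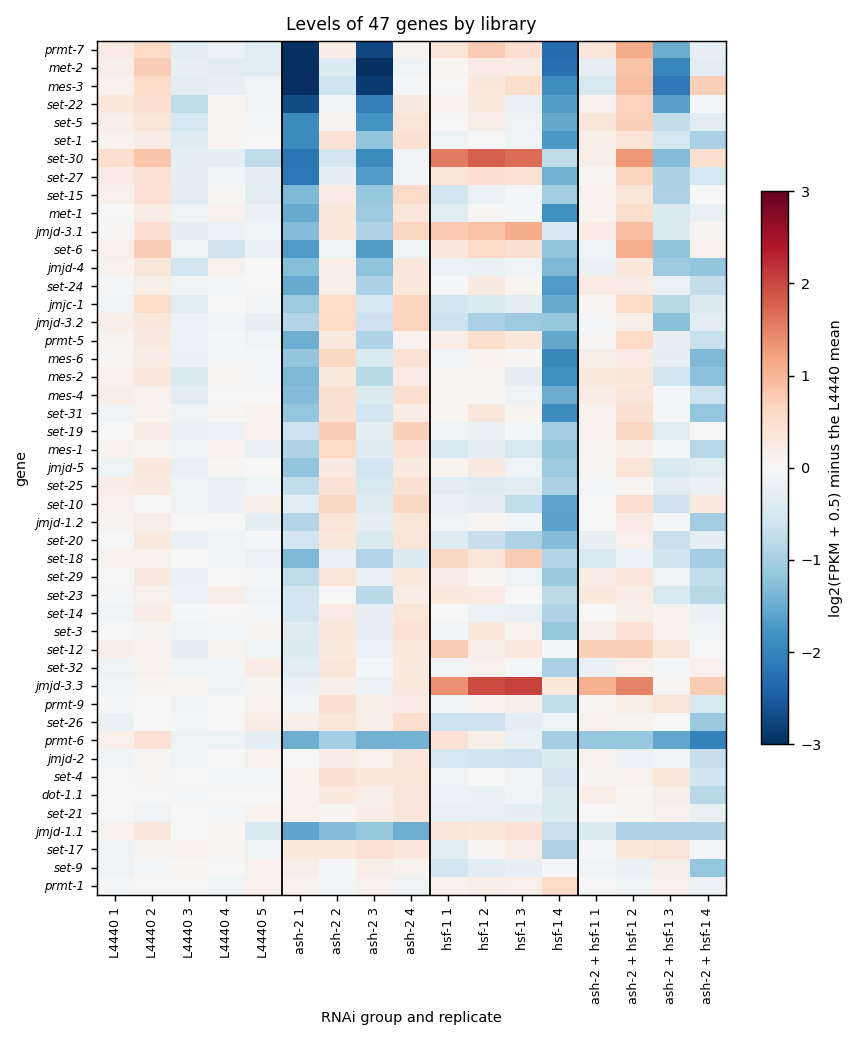
log2(FPKM + 0.5) minus the L4440 mean for the 47 genes in each of 17 libraries, blue lower and red higher. The blue columns are ash-2 replicates 1 and 3 and hsf-1 replicate 4, while jmjd-1.1 and prmt-6 are blue in every ash-2 library and jmjd-3.3 is red in hsf-1 replicates 1 to 3.

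**Figure D5:**
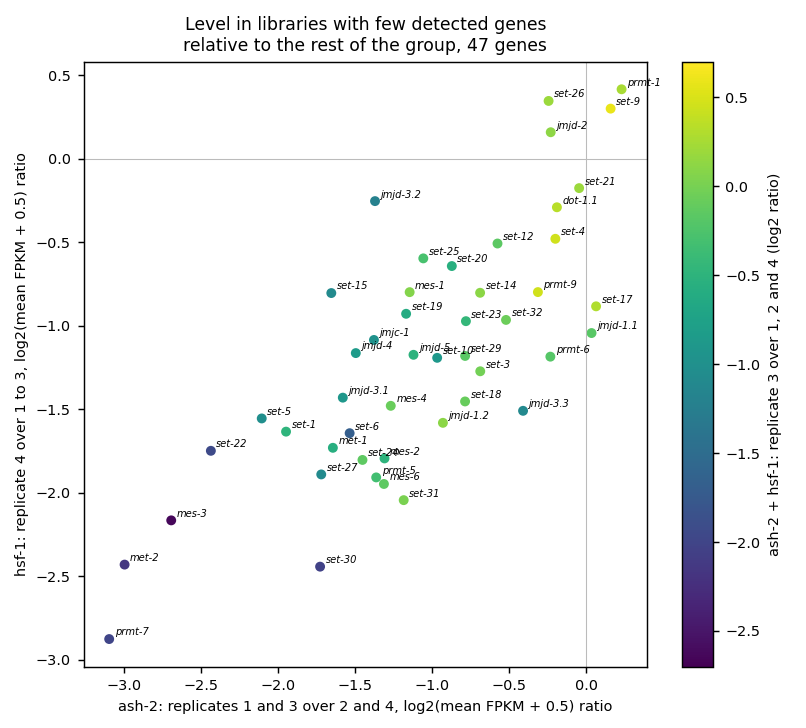
log2 ratio of the low-detection libraries to the rest of their group for the 47 genes, ash-2 on the x axis, hsf-1 on the y axis and ash-2 + hsf-1 by colour. prmt-7, met-2 and mes-3 lie lowest on the x axis, and prmt-1 and set-9 lie above 0 on both.

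Genes of histone methylation outside the name rule also gave few calls at the scaling used here with all libraries. Other settings were not read for them. Of 21 such genes, none was called in 5 comparisons, against 0.107% to 19.6% of all tested genes. In the comparison of both clones with hsf-1 RNAi 1 was called, against 9.71% of all tested genes. This was mrg-1, a chromodomain gene of the germline, at 112 FPKM in hsf-1 and 157 in the combined group (log2 change 0.47 ± 0.11, adjusted p = 0.0110). In limma the unadjusted p was under 0.05 for 1 of the 21 with ash-2 RNAi (33.4% of all tested genes) and for 3 with hsf-1 RNAi against L4440 (21.8%).

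The 47 genes lay on all 6 chromosomes, 9 on I, 7 on II, 7 on III, 9 on IV, 6 on V and 9 on X. Exons of 2 members overlap a coding gene on the same strand (jmjd-4 and mes-6), and exons of 7 overlap one on the opposite strand, among them jmjd-3.2 and set-27. Whether the authors' counting used strand is not given in the sources used here, so these values may hold fragments of the neighbour.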

How the data were processed

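Per the labels, the 17 libraries were made with Illumina's TruSeq kit for stranded mRNA. The authors deposited FPKM per gene and library, and the submitters' processing notes name cutadapt, HISAT2, StringTie and DESeq2 with build WBcel235; their versions and the tool behind each column are not stated there. The authors' deposited comparison tables hold a log2 fold change, a q-value and a significance mark. FPKM columns were matched to the labels by name. Genes at FPKM 1 or more in 4 or more libraries (13084) were fitted as log2(FPKM + 0.5) in limma 3.58.1 (R 4.3.3) with group as the only term over 17 libraries and eBayes with trend and robust settings, checked on simulated data. A log2 change on this scale understates changes of low genes. Values in every library are printed for the 12 members with the smallest adjusted p over 6 comparisons; set-30, dot-1.3 and set-13 were chosen after their values were seen. Depth was estimated in genes with 1 transcript, from the most common product of FPKM and transcript length in kb. That product was searched in a window of 0.03 to 0.085, which bounds the estimate. Replicates are biological replicates per the labels, and nothing there describes separate cultures further. Members and lists were chosen with earlier results of these data known. Coordinates are from RefSeq and Ensembl release 115 (WBcel235). Alternatives were other pseudocounts, no filter, other scalings, detected genes as a covariate, omitted libraries and a replicate block, the last also with the numbers of the table's columns.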

Additional observations from a re-analysis of the deposited data

Results flagged for a closer look

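Chance alone gives about 1 outlier in 20 groups of independent values. The 12 genes examined share the same libraries and were picked by their adjusted p, so that rate is no yardstick here. In groups of 4 or 5 libraries, 1 library stood far from the others in 7 of 48 groups examined (12 genes in 4 groups). Of these 7, 4 were in hsf-1 replicate 4, one of the libraries with few detected genes: jmjd-1.1 at 0.448 FPKM (nearest library 1.36), met-2 at 1.52 (nearest 9.51), set-27 at 1.01 (nearest 4.95) and prmt-1 at 707 (nearest 538), the last in the upward direction. In ash-2 + hsf-1 RNAi, jmjd-1.1 stood out in replicate 1 at 0.624 FPKM (nearest 0.305) and set-26 in replicate 4 at 7.62 FPKM (nearest 16.9). In ash-2 RNAi, prmt-6 stood out in replicate 2 at 2.19 FPKM (nearest 1.53), which is still below every L4440 library.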

How the results depend on the processing

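The calls of prmt-6 (all 3), of jmjd-1.1 with ash-2 and of jmjd-3.3 with hsf-1 held under every alternative run, but their sizes did not: jmjd-1.1 with ash-2 ran from -2.68 (pseudocount 0.1) to -0.58 (quantile normalization), prmt-6 with ash-2 from -1.52 to -0.66 (quantile normalization) and jmjd-3.3 with hsf-1 from 0.98 (pseudocount 1) to 2.45 (pseudocount 0.1). Counts of members called moved with the scaling. With ash-2 RNAi the 2 became 5 under median-of-ratios scaling, 11 under quantile normalization (9 of them higher) and 14 with detected genes as a covariate. With hsf-1 RNAi the 1 became 6, 11 (10 lower) and 27 under the same settings, and 6 without the 4 low-detection libraries. For both clones against L4440 the 2 became 1 with a pseudocount of 0.1, with one of 1 and with no filter, and 4 with the covariate; all tested genes gave 7.62%, 9.26% and 4.53% in the first 3 of these settings. Against ash-2 the 0 became 1 with a pseudocount of 0.1 (17.5% of all tested genes), 6 under quantile normalization, 10 with the covariate and 1 without the 4 libraries. Against hsf-1 the 2 became 1 with a pseudocount of 0.1 (8.10%), 5 under median-of-ratios scaling, 11 under quantile normalization, 26 with the covariate and 5 without the 4 libraries. The cause of these moves was not tested. The interaction stayed at 0. Leaving out 1 library gave 2 to 4, 1 to 3, 1 to 3, 0 to 2 and 1 to 4 members in those 5 comparisons, against 13.9% to 24.5%, 6.46% to 14.3%, 6.52% to 11.7%, 10.9% to 20.5% and 6.05% to 16.5% of all tested genes. Among these fits met-2 and mes-3 were called with ash-2 in the one without ash-2 replicate 4, and set-18 in the one without hsf-1 replicate 4. With the covariate, the ash-2 differences of mes-3 (0.24), met-2 (0.32), set-18 (0.0257) and set-27 (0.31) reversed; no ash-2 library reached the detected genes of any L4440 library, so those values extrapolate. The median over all genes with ash-2 moved from -0.32 to -0.03 under median-of-ratios scaling and 0.06 under quantile normalization. A block on the replicate numbers of the titles gave the same counts (2, 1, 2, 0, 2 and 0). By these numbers, 14 of 24 same-number pairs correlated over 0.1, and 9 of 16 libraries correlated best with their own number. Same-number correlations ran from -0.689 to 0.686, and all pairs of number 2 lay between 0.428 and 0.686. No chance rate was worked out, so whether libraries of one number share a batch is not settled. The main fit treats libraries as unpaired. The expression table's columns number 2 libraries differently (hsf-1 and ash-2 + hsf-1 replicate 4 carry a 5). A replicate block on the column numbers, added after the data were seen, gave 5 members with ash-2 (met-2, set-18 and set-27 besides the 2; 31.4% of all tested genes), 2 with hsf-1 (set-20 besides jmjd-3.3; 12.9%), 1 for both clones against ash-2 (jmjd-1.1, higher; 22.4%) and 2, 2 and 0 in the others. Of 22 same-number pairs, 14 correlated over 0.1, and 10 of 17 libraries correlated best with their own number.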
